A study of Homo sapiens with 8 samples.

Results

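The genes described here are 10 that define epithelial-mesenchymal transition in carcinoma: the transcription factors SNAI1, SNAI2, ZEB1, ZEB2 and TWIST1, the cadherins CDH1 and CDH2, the intermediate filament gene VIM, and the splicing regulators ESRP1 and ESRP2. They were taken by symbol from the count files, which list 59050 gene symbols, and all 10 were present and passed the filter on low counts. RNA came from tumours grown as xenografts from H2122, a human lung cancer line long kept in culture. There were 4 tumours of the parental line, labelled wild type, and 4 of H2122 cells with a knockout of SMARCA4, which encodes an ATPase of SWI/SNF, a chromatin remodeller. All animals had received vehicle. The host strain, its age, and whether the knockout cells came from 1 clone are not given in the sources used here.

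Epithelial-mesenchymal transition is a change of state in which cells give up the adhesions that hold an epithelium together and take on a motile form. SNAI1, SNAI2, ZEB1 and ZEB2 are zinc-finger repressors that bind E-box sequences in epithelial promoters such as that of CDH1, and TWIST1 is a basic helix-loop-helix factor. E-cadherin, encoded by CDH1, links epithelial cells, and its replacement by N-cadherin, encoded by CDH2, is called the cadherin switch. ESRP1 and ESRP2 maintain epithelial exon choice, and microRNAs of the miR-200 family and miR-205 are known to repress ZEB1 and ZEB2.

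The libraries held 19785922 to 23191698 gene counts, so a value of 1 CPM (CPM is the read count scaled to library size, with TMM factors) is about 20 reads. SMARCA4 was at 198 to 235 CPM in the parental group and 22.3 to 31.1 CPM in the knockout group, on the side its label gives in every library. The epithelial keratins KRT8 and KRT18 were at 1056 CPM or more in all 8 tumours, and EPCAM was at 433 CPM or more. Genes are called changed at an adjusted p under 0.05 over the 16219 genes tested (edgeR quasi-likelihood test, Benjamini-Hochberg). That threshold was passed by 27.0% of genes, 13.0% higher and 14.1% lower in knockout tumours. The labels do not say that replicates were separate animals or implants. The p-values set the difference between groups against the spread between these tumours within a group. If the knockout cells came from 1 clone, that spread holds no differences between clones.

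Of the 10 genes, 4 changed: ZEB1 rose, and SNAI2, CDH2 and ESRP1 fell. Against the 13.0% and 14.1% of all genes, this is 1 member higher and 3 lower. The CPM of the groups did not overlap for these 4 genes and overlapped for the other 6, while 29.3% of all genes had groups that did not overlap. The median log2 fold change over the 10 genes was -0.23, beside 0.003 over all genes tested. The members were chosen with earlier results of these data known, so the counts are a description. Without the parental tumours with the highest leukocyte marker level, replicates 2 and 3, the number changed was 7 (an analysis added after the data were seen). VIM, TWIST1 and ESRP2 were then also called.

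**Figure D1:**
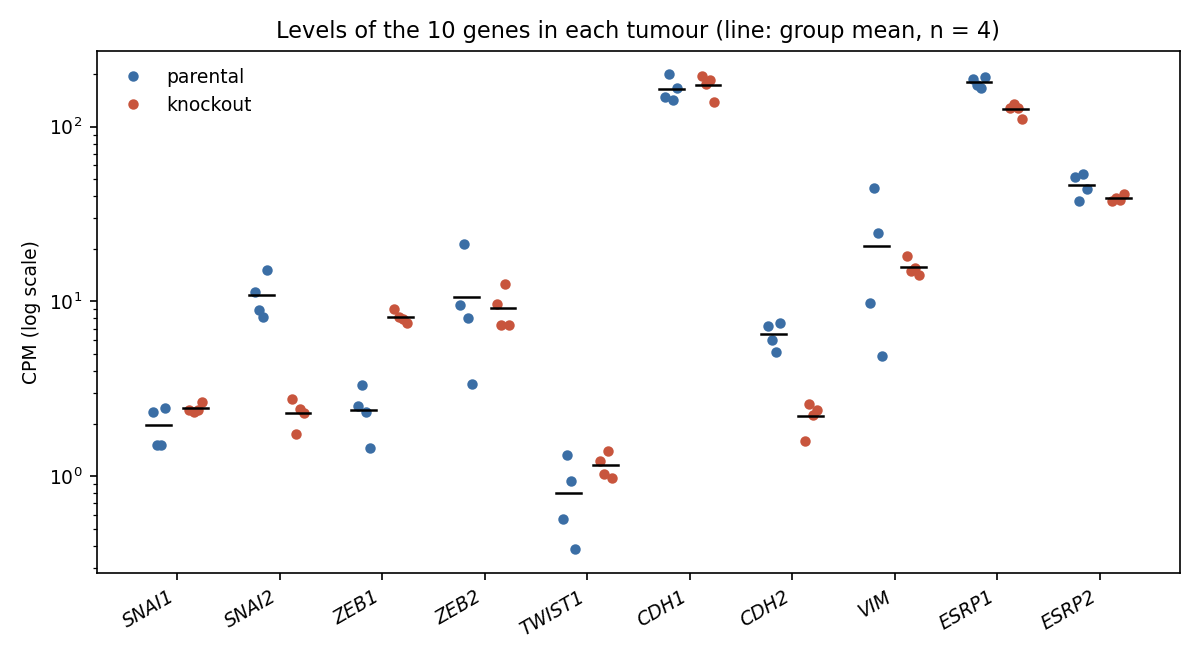
CPM of the 10 genes on a log scale in each of 4 parental (blue) and 4 knockout (red) tumours, with a line at the group mean. SNAI2 and CDH2 are lower and ZEB1 is higher in every knockout tumour than in any parental one, while the parental values of VIM run from 4.89 to 44.3 CPM.

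ZEB1, a repressor of epithelial genes, was the one member that rose. It was at 2.54, 3.32, 2.32 and 1.45 CPM in parental replicates 1 to 4 and at 9.06, 8.19, 7.98 and 7.52 CPM in knockout replicates 1 to 4. Every knockout tumour lay above every parental tumour, and the lowest knockout value exceeded the highest parental value by more than the whole parental range. On the log2 scale the difference was 1.77 with an SE of 0.218 (edgeR adjusted p = 0.000138), a 3.41-fold rise, and it ran from 1.58 to 2.05 over 18 other analyses, all of them calls. The gene lies on chromosome 10 from 31318495 to 31529814, plus strand (GENCODE 29, GRCh38).

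The antisense gene ZEB1-AS1, whose annotated exons overlap the start of ZEB1 on the other strand, rose as well. It went from 5.38 ± 1.15 CPM in parental to 9.23 ± 1.58 CPM in knockout tumours, as mean ± SD of 4 each. Its log2 fold change was 0.78 with an SE of 0.189 (edgeR adjusted p = 0.0100). Whether counting used strand is not given in the sources used here. How reads were counted where this antisense gene and ZEB1 overlap, or whether they were left out as ambiguous, is therefore not known. The gene was chosen after its values were seen.

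RefSeq lists 7 starts for ZEB1, and the 250 bases before the first of them are shown because ZEB1 rose and an exon of ZEB1-AS1, which rose too, overlaps this stretch. Capitals mark the E-box that the SNAI and ZEB factors can bind (CACCTG, or CAGGTG on the other strand). The window is chr10:31318167-31318416, plus strand, GRCh38.p14.
ZEB1 upstream: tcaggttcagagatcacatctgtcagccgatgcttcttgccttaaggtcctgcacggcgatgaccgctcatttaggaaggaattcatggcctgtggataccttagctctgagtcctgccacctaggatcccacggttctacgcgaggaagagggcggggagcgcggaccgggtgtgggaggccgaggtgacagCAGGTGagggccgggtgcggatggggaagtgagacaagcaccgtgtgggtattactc
The E-box begins 57 bases before this start. Of the 7 windows, 2 hold an E-box, and none holds the AP-1 motif TGACTCA or its reverse complement TGAGTCA. Over all 35116 RefSeq windows of this length, 17.5% hold the E-box and 4.20% the AP-1 motif. These are matches of letters and not sites shown to be bound.

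The 3′ end of the ZEB1 transcript carries matches to the microRNAs known to repress it. Their mature sequences (RefSeq, GRCh38.p14) are shown with the seed, bases 2 to 8, in capitals, because the seed is what pairs with the target. They fall into 3 seeds: that of miR-205-5p alone, that shared by miR-200b-3p, miR-200c-3p and miR-429, and that shared by miR-200a-3p and miR-141-3p.
hsa-miR-205-5p: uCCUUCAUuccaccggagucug
hsa-miR-200b-3p: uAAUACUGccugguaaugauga
hsa-miR-200c-3p: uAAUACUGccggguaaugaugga
hsa-miR-429: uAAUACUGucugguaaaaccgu
hsa-miR-200a-3p: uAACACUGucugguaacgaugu
hsa-miR-141-3p: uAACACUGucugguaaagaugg

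In the longest annotated 3′ UTR of ZEB1 (2549 bases, GENCODE 29), there was 1 match to the miR-205 seed, 6 to the miR-200b, miR-200c and miR-429 seed and 3 to the miR-200a and miR-141 seed. That of ZEB2 (5370 bases) had 0, 5 and 4. Over the longest 3′ UTRs of 19133 coding genes, 11.7%, 16.0% and 18.3% held at least 1 match to the 3 seeds in the same order. These shares were not matched for the length of the 3′ UTR. Only matches to the whole seed were counted, so shorter sites are not included. Among the 8 other members, SNAI2 had 1 match to the miR-200b seed and ESRP1 had 1 match to each of the miR-200 seeds. A site for each seed is given, with the match in capitals, to show what the seeds above would pair with.
ZEB1, miR-205 match: gtggtaacatATGAAGGatatgaca
ZEB1, miR-200b match: tttatcttatCAGTATTatcactct
ZEB1, miR-200a match: tttgatttaaCAGTGTTatgttaac
ZEB2, miR-200b match: tacaatgcatCAGTATTatgattcc
The ZEB1 sites lie at chr10:31528072-31528096, chr10:31527623-31527647 and chr10:31528787-31528811, plus strand. The ZEB2 site lies at chr2:144388982-144389006, minus strand (GRCh38). Each match printed here is followed by an A, which lengthens the canonical site by a base. Other matches lack this A, among them those at bases 463 to 469 and 782 to 788 of the ZEB1 3′ UTR. The ZEB2 match at bases 392 to 398 lacks it too, so the printed sites do not stand for all matches. A match to a seed does not show that the site is used.

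MIR205HG, the host gene of miR-205, fell to near the limit of detection. The microRNA genes in these paragraphs were chosen after their values were seen. MIR205HG (chromosome 1, 209428820 to 209432838, plus strand) drew 509, 286, 1221 and 1132 reads in the 4 parental tumours by replicate number, against 1, 5, 7 and 18 in those with the knockout. The means were 35.7 ± 18.9 and 0.364 ± 0.338 CPM (SD, n = 4 each), which is -6.59 on the log2 scale with an SE of 0.582 (edgeR adjusted p = 1.38e-05). The groups were far apart, although the parental tumours differed among themselves from 14.0 to 54.5 CPM. The hairpin symbol MIR205 had 26 counts summed over parental tumours and 0 over knockout tumours. With 3 counts allowed for the knockout group as a whole, the pooled parental level was 8.57 times that floor. This takes the 26 parental counts as they stand, without their error or the spread between tumours. MIR205 lies within MIR205HG, so the 2 falls are not separate results.

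The precursors of the miR-200 family differed less. MIR429 fell from 1.54 ± 0.503 CPM in parental to 0.543 ± 0.0883 CPM in knockout tumours, as mean ± SD of 4 each. Its log2 fold change was -1.49 with an SE of 0.303 (edgeR adjusted p = 0.00368), on 9 to 48 counts per library. MIR200B, its neighbour on chromosome 1, differed by -0.78 on the log2 scale with an SE of 0.520 (edgeR adjusted p = 0.300). MIR200CHG, the host gene of the chromosome 12 pair, was at 6.26 ± 1.48 and 6.23 ± 0.339 CPM (SD, n = 4 each), with an adjusted p of 0.989. MIR200A had 3 to 20 counts per library, and MIR200C and MIR141 had at most 4, below the filter. These libraries count the longer transcripts, not mature microRNAs, so the levels of the sequences printed above were not measured. Whether the fall of MIR205HG bears on ZEB1 was not tested.

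**Figure D2:**
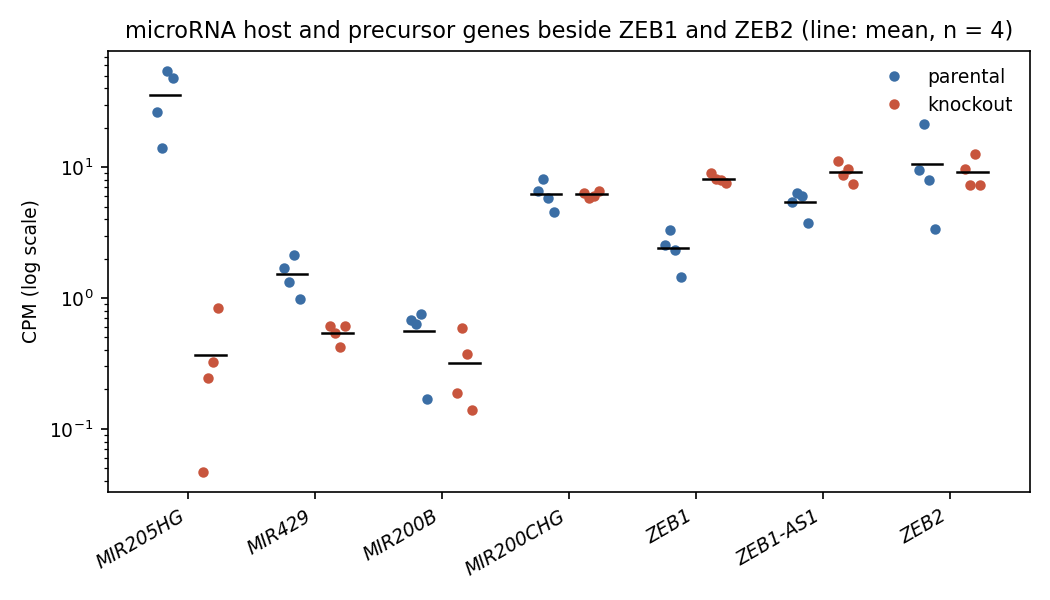
CPM on a log scale of microRNA host and precursor genes and of ZEB1, ZEB1-AS1 and ZEB2 in each tumour (blue parental, red knockout, line at the mean). MIR205HG drops from 14.0 CPM or more to 0.840 CPM or less, MIR200CHG lies between 4.55 and 8.10 CPM in both groups, and ZEB1 is higher in all 4 knockout tumours.

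SNAI2, which encodes the repressor Slug, moved the opposite way from ZEB1. It was at 11.3, 8.98, 8.13 and 15.2 CPM in parental replicates 1 to 4 and at 2.76, 1.76, 2.43 and 2.29 CPM in knockout replicates 1 to 4. The highest knockout tumour lay well below the lowest parental tumour. Knockout over parental, the log2 fold change was -2.24 with an SE of 0.226 (edgeR adjusted p = 3.43e-05). Knockout tumours kept 21.1% of the parental SNAI2 level, and the value ran from -2.53 to -2.04 over the 18 other analyses, all of them calls.

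SNAI1, the paralog that encodes Snail, was at 2.33, 1.51, 1.52 and 2.47 CPM in parental and at 2.38, 2.34, 2.38 and 2.66 CPM in knockout tumours. Parental replicates 2 and 3 were low, replicate 1 lay just under the lowest knockout tumour, and replicate 4 lay among the knockout tumours. In log2 units the difference was 0.32 with an SE of 0.220 (edgeR adjusted p = 0.320), with no call in any of the 18 analyses. SNAI2 had 4.84 to 6.17 times the reads of SNAI1 in parental tumours, and 0.750 to 1.16 times in knockout tumours. This ratio was formed after the fall of SNAI2 was seen and restates it within each library, without scaling.

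TWIST1 had 9 to 30 reads per library, the fewest of the members. It was at 0.570, 1.32, 0.938 and 0.383 CPM in parental and at 1.21, 1.02, 1.40 and 0.980 CPM in knockout tumours, and the groups overlapped. As a log2 fold change this was 0.53 with an SE of 0.354 (edgeR adjusted p = 0.302). Adjusting for a leukocyte score gave 0.76 (adjusted p = 0.0422), and without parental replicates 2 and 3 it was 1.28 (0.0231). That score averages the log2 CPM of 8 leukocyte marker genes. It was higher in every knockout tumour than in parental replicates 1 and 4, the ones left in the second analysis. Of the 18 other analyses of TWIST1, 16 gave no call, and the value ran from 0.28 to 1.28 over all 18.

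ZEB2, the paralog of ZEB1, was at 9.58, 21.4, 7.99 and 3.36 CPM in parental and at 9.67, 7.36, 12.6 and 7.33 CPM in knockout tumours. The parental tumours covered a wider range than the knockout tumours, which lay within it. Fitted by edgeR, the log2 fold change was -0.19 with an SE of 0.426 (edgeR adjusted p = 0.779), and its sign turned without parental replicate 2 (0.41, adjusted p = 0.365). Markers chosen for host fibroblasts summed to 352, 612, 350 and 182 CPM in parental replicates 1 to 4. In knockout replicates 1 to 4 they summed to 591, 346, 607 and 380 CPM. The parental order is that of ZEB2, though replicates 1 and 3 had nearly the same sum. In the knockout group replicates 3 and 1 led by both, and replicates 2 and 4, nearly equal in ZEB2, changed places. Of those 10 markers, DPT had no read in any library, and COL1A1 alone accounted for 353 ± 164 CPM in the parental group and 447 ± 132 CPM in the knockout group (SD, n = 4 each). LUM was the only one of the 6 tested that changed (log2 fold change 5.00, edgeR adjusted p = 1.98e-06; named after its values were seen). The part of host RNA in the ZEB2 counts was not tested. In bulk tumours, fewer cells of a type and less RNA per cell cannot be told apart.

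ZEB1 had 0.155 to 0.430 times the reads of ZEB2 in parental tumours and 0.636 to 1.11 times in knockout tumours. This ratio too was formed after the rise of ZEB1 was seen, and it restates that rise.

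CDH1, the E-cadherin gene that these factors repress in other settings, was at 149, 199, 143 and 166 CPM in parental and at 194, 176, 185 and 139 CPM in knockout tumours. The groups covered much the same range, with the highest value in a parental tumour and the lowest in a knockout tumour. On the log2 scale the difference was 0.08 with an SE of 0.130 (edgeR adjusted p = 0.704), and the 18 other analyses gave 0.01 to 0.18 with no call. CDH1 lies on chromosome 16 from 68737225 to 68835548, plus strand.

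CDH2, the N-cadherin gene, was at 7.25, 6.01, 5.14 and 7.57 CPM in parental and at 1.59, 2.58, 2.24 and 2.38 CPM in knockout tumours. No knockout tumour reached the parental range. Knockout over parental, the log2 fold change was -1.56 with an SE of 0.200 (edgeR adjusted p = 0.000180). Knockout tumours kept 33.9% of the parental CDH2 level, and the other analyses gave -1.76 to -1.43, all calls. CDH2 lies on chromosome 18 from 27950966 to 28177446, minus strand.

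The cadherin switch as usually described lowers CDH1 and raises CDH2, whereas here CDH2 fell and CDH1 did not pass the test. CDH1 had 20.5, 33.1, 27.8 and 22.0 times the reads of CDH2 in the 4 parental tumours by replicate number and 122, 67.9, 82.6 and 58.3 times in those with the knockout. The log2 ratio was higher by 1.65 in knockout tumours (4.67 ± 0.317 against 6.31 ± 0.462, SD, n = 4 each). ZEB1 reads relative to CDH1 reads were higher by 1.75 on the log2 scale, again with no overlap between groups.

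**Figure D3:**
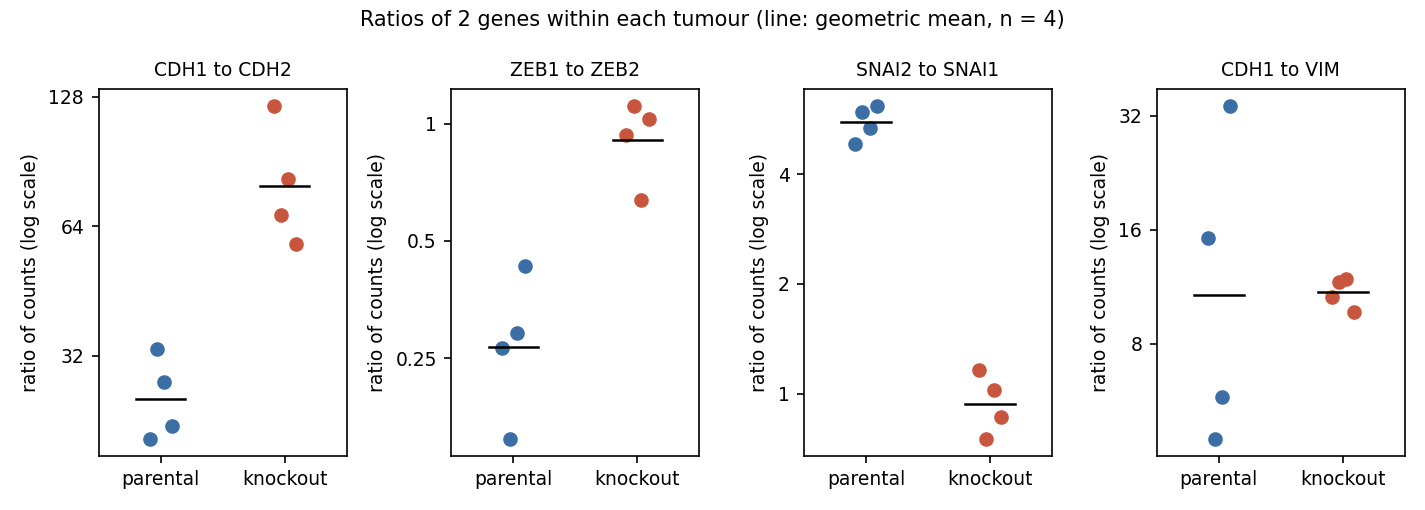
Ratio of the counts of 2 genes in the same tumour, on a log scale, for 4 parental (blue) and 4 knockout (red) tumours, with a line at the geometric mean. The groups are apart for CDH1 to CDH2, and for ZEB1 to ZEB2 and SNAI2 to SNAI1, pairs added after the values were seen, while for CDH1 to VIM the knockout ratios of 9.74 to 11.9 fall inside the parental range of 4.49 to 34.0.

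VIM encodes vimentin, the intermediate filament of mesenchymal cells, leukocytes and fibroblasts. It was at 9.79, 44.3, 24.6 and 4.89 CPM in parental replicates 1 to 4 and at 18.3, 15.0, 15.6 and 14.2 CPM in knockout replicates 1 to 4. The parental tumours split to both sides of the knockout tumours, which were close together. In log2 units the difference was -0.40 with an SE of 0.499 (edgeR adjusted p = 0.594).

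The leukocyte score was 0.13, 2.70, 2.45 and -0.17 in the 4 parental tumours by replicate number and 1.43, 1.28, 1.09 and 0.51 in those with the knockout. The 4 parental tumours had the same order by VIM as by the score. The 10 leukocyte markers summed to 11.7 to 68.0 CPM in the parental and 15.0 to 26.9 CPM in the knockout group, and none was at 0 in any library. CYBB, a phagocyte oxidase subunit, was the only one of the 8 tested that passed the threshold, and none did without parental replicate 2 or 3 or without any 1 knockout tumour. With the score as a covariate the log2 fold change of VIM was 0.19 (SE 0.197, edgeR adjusted p = 0.491). Without parental replicate 2 it was 0.27 (adjusted p = 0.654), and without replicates 2 and 3 it was 1.11 (0.00675, a call for a rise). The knockout tumours then had higher leukocyte scores than both remaining parental tumours. No step that separates mouse from human reads is given in the sources used here, and the part of host leukocytes in the VIM counts was not tested.

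**Figure D4:**
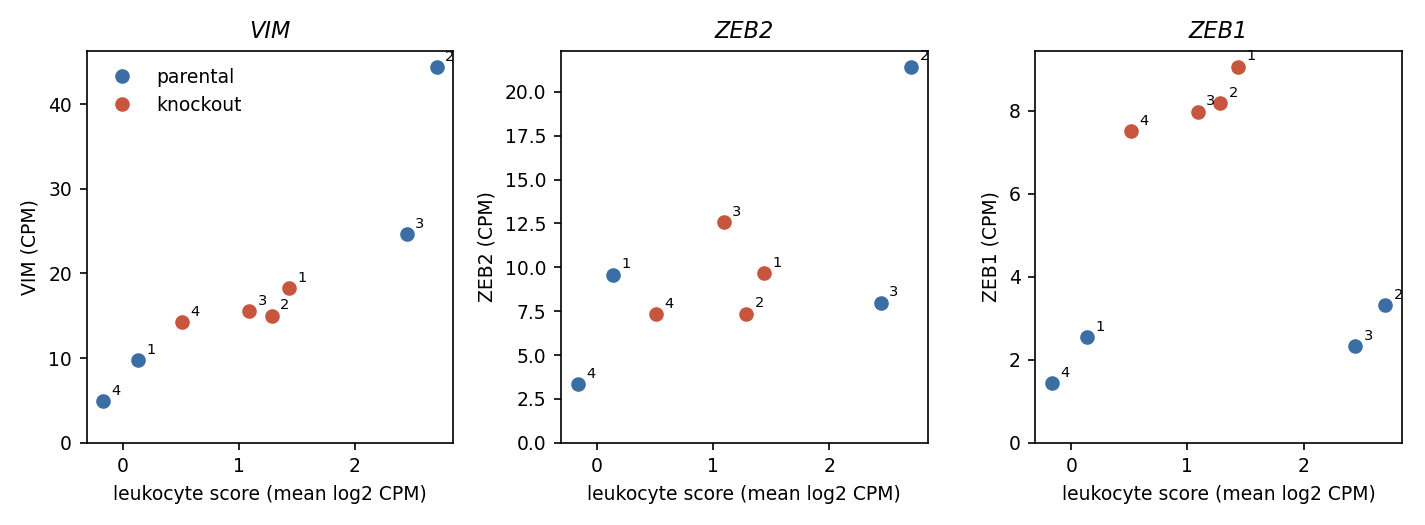
CPM of VIM, ZEB2 and ZEB1 in each tumour against the leukocyte score (mean log2 CPM of 8 marker genes); numbers are replicates, blue parental and red knockout. VIM is highest in parental replicates 2 and 3, which have the highest scores, whereas ZEB1 is at 7.52 CPM or more in all knockout tumours and at 3.32 CPM or less in all parental tumours.

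ESRP1, the main splicing regulator of epithelial cells, was at 188, 174, 167 and 193 CPM in parental and at 129, 135, 128 and 111 CPM in knockout tumours. All knockout tumours were lower than all parental tumours. As a log2 fold change this was -0.52 with an SE of 0.0885 (edgeR adjusted p = 0.00120). Knockout tumours kept 69.6% of the parental ESRP1 level, with -0.61 to -0.46 over the other analyses, all calls. Its paralog ESRP2 was at 51.4, 37.6, 53.9 and 43.8 CPM in parental and at 37.5, 38.9, 38.2 and 41.1 CPM in knockout tumours. Parental replicate 2 lay among the knockout tumours, and the log2 fold change of -0.26 (SE 0.113) had an adjusted p of 0.113. Without that replicate it was -0.35 (edgeR adjusted p = 0.0195). Of the 18 other analyses of ESRP2, 16 gave no call, and the value ran from -0.35 to -0.19 over all 18. Reads of ESRP1 outnumbered those of ESRP2 3.10 to 4.62 times in parental and 2.70 to 3.48 times in knockout tumours, and these ranges overlapped.

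**Figure D5:**
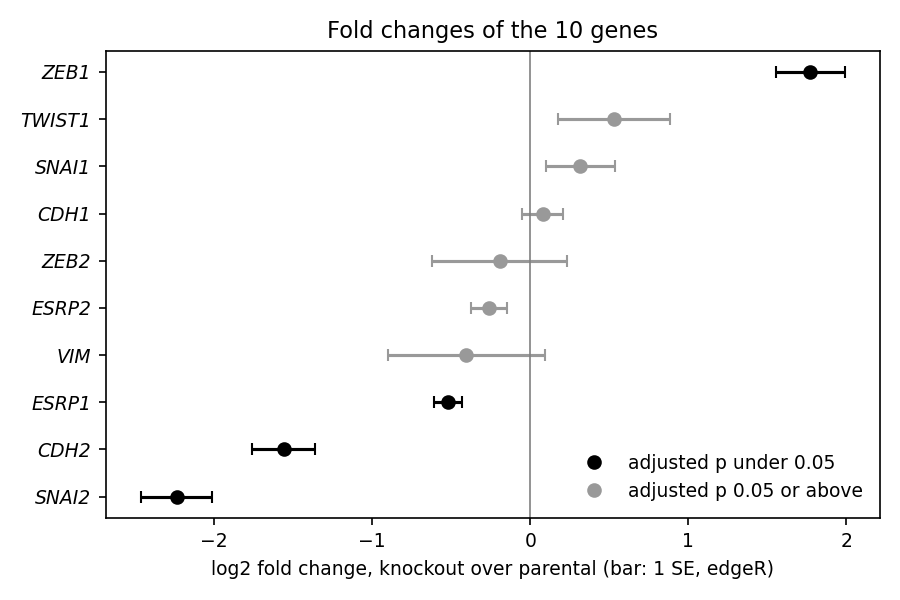
Log2 fold change of each of the 10 genes, knockout over parental, with bars of 1 SE from edgeR. The 4 genes past the threshold are black: ZEB1 at 1.77, ESRP1 at -0.52, CDH2 at -1.56 and SNAI2 at -2.24. Bars are widest for VIM (0.499) and ZEB2 (0.426).

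Levels of different genes were compared as CPM per kilobase of annotated exon. In parental tumours ESRP1 (37.0 ± 2.47) and CDH1 (26.6 ± 4.10) led, followed by ESRP2 (8.39 ± 1.33), VIM (4.05 ± 3.44), SNAI2 (3.22 ± 0.935), CDH2 (1.31 ± 0.228), SNAI1 (1.16 ± 0.304), ZEB2 (0.423 ± 0.307), TWIST1 (0.395 ± 0.204) and ZEB1 (0.278 ± 0.0891; CPM per kilobase, SD, n = 4). The ranges of neighbours overlapped between ESRP2, VIM and SNAI2, between CDH2 and SNAI1, and from ZEB2 to ZEB1. ZEB1 was thus last in parental tumours.

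In knockout tumours CDH1 (28.1 ± 3.93) and ESRP1 (25.8 ± 2.14) overlapped at the top. ESRP2 (6.99 ± 0.280), VIM (3.06 ± 0.339), SNAI1 (1.45 ± 0.0877) and ZEB1 (0.947 ± 0.0750) followed, each apart from its neighbours. SNAI2 (0.680 ± 0.123), TWIST1 (0.568 ± 0.0948), CDH2 (0.444 ± 0.0869) and ZEB2 (0.368 ± 0.0987; CPM per kilobase, SD, n = 4) overlapped from each to the next. ZEB1 moved from rank 10 to 6 and SNAI2 from rank 5 to 7. The ZEB2 gene model holds 25.1 kb of exon, against 8.65 kb for ZEB1, since all annotated isoforms were joined, which lowers its value on this scale.

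The genes with the most similar profiles were found by the root mean square difference of log2 CPM over the 8 tumours, each gene centred on its own mean, among 13053 genes. For ZEB1 these were IL22RA1 and MAFK (differences of 0.172 and 0.174), and for SNAI2 they were UGT8 and AL139385.1 (0.270 and 0.272). For CDH2 they were SLITRK5 and SH3BP5 (0.163 and 0.187), and for ESRP1 they were VPS37A and LMLN (0.0392 and 0.0678). For VIM they were MYO1F and DOCK2 (0.224 and 0.244), and for ZEB2 they were COL5A2 and PRRX1 (0.129 and 0.198). None of these pairs repeats across members. For the other members, none of them called, the nearest were GON7 and SDHD for SNAI1, JAK3 and PDE9A for TWIST1, KIF16B and RC3H2 for CDH1, and CSNK1G2 and NAPRT for ESRP2, with differences of 0.0558 to 0.172.

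Other genes of the programme were examined in lists. Of 12 other transcription factors linked to the transition, 1 rose and 6 fell, with a median log2 fold change of -0.59. The changed share was 58.3%, against 27.0% of all genes. HMGA2, a chromatin protein of embryonic and tumour cells, fell from 5.68 ± 0.595 CPM in parental to 1.44 ± 0.231 CPM in knockout tumours, as mean ± SD of 4 each. Its log2 fold change was -1.97 (edgeR adjusted p = 1.95e-05). RUNX2, a bone lineage factor, fell by 0.98 on the log2 scale (adjusted p = 0.00187). FOXC1, a forkhead factor, rose from 34.2 ± 4.98 CPM in parental to 88.6 ± 4.77 CPM in knockout tumours. Its log2 fold change was 1.37 (adjusted p = 7.41e-06).

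Of 14 transcription factors tested that maintain epithelial identity, 8 fell and 0 rose, with a median of -0.58. The changed share was 57.1%, all lower, against 27.0% of all genes changed and 14.1% lower. GRHL2, which activates CDH1 and restrains ZEB1 in other epithelia, was at 86.4, 76.7, 81.7 and 89.2 CPM in parental and at 46.1, 41.3, 47.3 and 46.5 CPM in knockout tumours. The groups were far apart, by -0.88 on the log2 scale with an SE of 0.0836 (edgeR adjusted p = 2.23e-05). TP63, the basal cell factor, fell by 2.34 on the log2 scale (adjusted p = 0.000213), and FOXA2, a foregut factor, fell by 1.88 (0.000482).

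Among 25 epithelial markers tested, 14 fell and 0 rose, with a median log2 fold change of -0.31. That makes 56% changed, all lower, against 27.0% of all genes changed and 14.1% lower. PRSS8, a membrane serine protease, fell from 89.5 ± 15.9 CPM in parental to 31.5 ± 2.94 CPM in knockout tumours, as mean ± SD of 4 each. Its log2 fold change was -1.51 (edgeR adjusted p = 1.16e-05). CLDN4, a tight junction claudin, fell by 0.99 on the log2 scale (adjusted p = 2.66e-05). EPCAM, an epithelial adhesion molecule, had a log2 fold change of -0.23 (SE 0.0922) which did not pass (adjusted p = 0.0943). When knockout replicate 1 was left out, 9 of the 25 passed the threshold, all lower, and with upper-quartile scaling 2 rose and 13 fell.

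Of 25 mesenchymal markers tested, 12 rose and 3 fell, with a median log2 fold change of 0.59. That makes 60% changed, against 27.0% of all genes, of which 13.0% were higher and 14.1% lower. TAGLN, an actin-binding protein of smooth muscle and fibroblasts, rose from 13.4 ± 4.52 CPM in parental to 50.3 ± 14.0 CPM in knockout tumours, as mean ± SD of 4 each. Its log2 fold change was 1.91 (edgeR adjusted p = 0.000262). MYL9, a myosin light chain, rose by 1.64 on the log2 scale (adjusted p = 0.000432). The matrix protein gene TNC fell by 0.50 (adjusted p = 0.0357). FN1, which encodes fibronectin, ranged from 78.3 to 215 CPM among parental and from 76.3 to 95.4 CPM among knockout tumours, with a log2 fold change of -0.74 and an adjusted p of 0.0503. Without parental replicates 2 and 3 the marker counts were 12 higher and 3 lower for this list, and 1 higher and 12 lower for the epithelial markers. Markers chosen for host fibroblasts summed to 182 to 612 CPM in the parental group and 346 to 607 CPM in the knockout group. Of the 6 tested, LUM was higher and the other 5 did not change. Host endothelial markers summed to 17.3 to 26.8 and 26.6 to 32.3 CPM, and of the 3 tested EGFL7 was higher and VWF lower in knockout tumours. Skeletal muscle markers summed to 1.35 to 31.9 and 1.31 to 16.8 CPM, with 0 of 2 changed. The part of host cells in the mesenchymal counts, and in the counts of these host markers themselves, was not tested.

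In the list of other cadherins, 7 genes were tested, of which 3 rose and 1 fell (57.1%, against 27.0% of all genes). The desmosomal cadherin gene DSG3 rose by 0.83 and the protocadherin gene PCDH7 by 0.64 on the log2 scale (edgeR adjusted p = 0.00436 and 0.00288), while PCDH1 fell by 0.99 (2.52e-05). Of 13 genes of cadherin partners, 1 rose and 6 fell (53.8%, against 27.0% of all genes), with a median of -0.36. NECTIN1 and NECTIN2, adhesion molecules of the same junctions, fell by 1.11 and 0.62 on the log2 scale (adjusted p = 0.000309 and 0.00441), and the alpha-catenin-like gene CTNNAL1 rose by 0.70 (0.00258). CTNND1, whose product p120-catenin stabilises cadherins at the membrane, fell by 0.33 (SE 0.0805, adjusted p = 0.0102). CTNNB1, the beta-catenin gene, was at 508 ± 57.9 and 509 ± 28.0 CPM without and with the knockout (SD, n = 4 each; adjusted p = 0.994).

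Beside VIM, 10 other intermediate filament and linker genes were tested, of which 3 fell and 0 rose (median log2 fold change 0.01). This is 30% changed, near the 27.0% of all genes. KRT19 fell from 1060 ± 153 to 526 ± 51.0 CPM and KRT7 from 1675 ± 94.6 to 1024 ± 116 CPM (SD, n = 4 each), log2 fold changes of -1.01 and -0.71 (edgeR adjusted p = 8.49e-05 and 0.000333). Both are keratins of simple epithelium. The epithelial keratins KRT8 and KRT18, in the same list, were not called. Their log2 fold changes were 0.16 and 0.11 (edgeR adjusted p = 0.399 and 0.528).

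The ESRP splicing list had 17 genes tested, of which 3 rose and 1 fell, 23.5% against the 27.0% of all genes. CD44, a hyaluronan receptor with ESRP-dependent exons, rose by 0.63 on the log2 scale (edgeR adjusted p = 0.00153). FGFR2, the best known ESRP target, had only 10 to 38 reads per library and a log2 fold change of 0.98 with an SE of 0.291 (adjusted p = 0.0279). The adjusted p of FGFR2 ran from 0.0159 to 0.0810 over 17 other analyses, with the call lost in 7 of them. Counts per gene do not show exon choice. Without knockout replicate 1 or knockout replicate 3, 2 genes of this list were called.

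Upstream regulators of the factors also stood near the background, with 2 of 23 tested higher and 4 lower (26.1%, median log2 fold change -0.08). HIF1A, the hypoxia factor that can induce TWIST1, fell by 0.63 on the log2 scale (edgeR adjusted p = 0.000870), and HDAC2, a deacetylase recruited by SNAI1, fell by 0.43 (0.00584). The count was 2 without knockout replicate 1 and 3 without parental replicate 3, knockout replicate 2 or knockout replicate 3.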

How the data were processed

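RNA sequencing of 8 xenograft tumours was analysed from 1 file per tumour. Each deposited file gives unnormalised counts of reads by gene symbol. Reads were processed with TopHat2 2.1.1 and HTSeq 0.11.0 on hg38, per the submitters' processing notes. The annotation, strand setting and any removal of mouse reads are not given in the sources used here. The 5 summary lines of each file were left out, and 79.1% to 85.2% of counted reads were assigned to a gene.

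Differential expression across all genes was tested with edgeR 4.0.16 in R 4.3.3: filterByExpr (minimum count 10, minimum total 15), TMM scaling, quasi-likelihood F-test, no covariate, Benjamini-Hochberg adjustment over 16219 genes. Log2 CPM used a prior count of 2. Alternatives were DESeq2 1.42.0, limma-voom (limma 3.58.1), 3 scalings, 2 filters, the replicate number as a block, a leukocyte score as a covariate, and leaving out each tumour. The procedure was run on simulated counts drawn independently for each gene, without the variation between tumours that genes can share. That run checked the code and does not bear on the calls made here. The members and lists were chosen with earlier results of these data known. The rule for names was: all members, SMARCA4, CTNNB1, CTNND1, GRHL2, EPCAM, FN1 and FGFR2, and in each list up to 2 changed genes per direction with the largest fold change, a mean log2 CPM no lower than 1 and groups that did not overlap, plus the 2 nearest profiles per member. Of the genes this rule names, 2 are not reported here. Positions, exon lengths and 3′ UTRs are from GENCODE 29, promoters and microRNAs from RefSeq. Of the members, 4 matched by symbol in the promoter table: ZEB1 with 7 starts, CDH2 with 2, and VIM and ZEB2 with 1 each. Intervals and floors cover counting error only, and the floor for MIR205 covers that of the knockout counts alone.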

Additional observations from a re-analysis of the deposited data

Results flagged for a closer look

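SNAI1 in knockout replicate 4 was at 2.66 CPM, and knockout replicates 1 to 3 were at 2.34 to 2.38 CPM. It was the only value that stood apart among 32 sets of 4 tumours, where chance gives about 5%, and the whole range was narrower than that of the parental tumours. The parental and knockout SNAI1 values overlapped with or without it.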

How the results depend on the processing

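The calls for ZEB1, SNAI2, CDH2 and ESRP1 kept their direction and stayed past the threshold in all 18 alternatives. The number of changed members was 4 to 5 with 1 tumour left out and 7 without parental replicates 2 and 3, an alternative chosen after seeing the data; fewer samples enter there, and the cause was not tested. Changed genes numbered 3501 to 4721 with 1 tumour left out, 5243 with the leukocyte covariate and 3871 with the replicate block. With upper-quartile scaling 54.1% of changed genes were higher, against 47.9%.

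Log2 fold changes with no call turned sign as follows, and the cause was not tested. VIM was 0.0720 with limma-voom, 0.000159 with the replicate block, 0.19 with the covariate, 1.11 without both tumours (a call) and -0.74 to 0.27 with 1 tumour left out. ZEB2 was 0.0965, 0.0455, 0.0553, 0.52 and -0.50 to 0.41 in the same order. MIR200CHG was 0.0324 with upper-quartile scaling, 0.0339 with limma-voom, 0.00209 with the 1 CPM filter, 0.0189 with the block, 0.0358 with the covariate, 0.17 without both tumours and -0.14 to 0.14 with 1 left out. CTNNB1 was -0.00685 with DESeq2 size factors, -0.0197 with library size only, -0.0177 with DESeq2, -0.0213 with no filter, -0.00302 with the covariate, -0.0377 without both tumours and -0.0513 to 0.0628 with 1 left out. The log2 ratio of CDH1 to VIM differed by -0.40 to 0.58 with 1 tumour left out.

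With the replicate number as a block, 4 members were changed. Tumours of the same number had correlations of -0.0431, -0.0217, -0.187 and 0.0863 and none correlated best with its own number, so the numbers were not taken as pairs. TWIST1 had 9 to 30 reads per library, which limits its precision.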
